A study of Rattus norvegicus with 20 samples.

Results

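The natriuretic peptide system was followed across the right ventricle of rats with and without chronic pulmonary embolism (PE). It was defined by 8 gene names: the peptides Nppa, Nppb and Nppc, the receptors Npr1, Npr2 and Npr3, and the processing enzymes Corin and Furin. Members were all probe sets (groups of short probes for 1 transcript) whose only gene symbol in the platform annotation was one of these names. Of the 8 genes, 7 were measured, each by 1 probe set, among 14217 genes with a probe set, and Corin is not analysed here.

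The data were 20 Affymetrix expression arrays, 1 per tissue sample, in 4 groups of 5 arrays that cross treatment (vehicle or PE) with region (apex or outflow tract). All samples came from male Sprague Dawley rats of about 350 g, killed 6 weeks after an injection into the right jugular vein. PE rats received polystyrene microspheres of 25 micron diameter, 2000000 per 100 g of body weight, given as a suspension of 13000000 per ml in 0.01% Tween-20. Vehicle rats received 0.15 ml per 100 g of 0.01% Tween-20 per their treatment field, while the text on the design of the study gives a smaller volume. A further text field describes vehicle treatment for every sample, so the groups follow the titles and the treatment field. After perfusion to clear the blood, each right ventricle was cut into its apex and its base, which holds the outflow tract. The samples are labelled as biological replicates, and the microspheres are a particle model that lodges in the lung circulation rather than a blood clot.

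Atrial natriuretic peptide (from Nppa) and B-type natriuretic peptide (from Nppb) are hormones that heart muscle secretes when it is stretched, and they promote salt excretion and relax vessels. Both are made as larger precursors, which corin and furin cut, and both act on the receptor guanylyl cyclase NPR-A (Npr1), which makes the messenger cGMP. C-type natriuretic peptide (Nppc) acts on NPR-B (Npr2), and NPR-C (Npr3) binds all 3 peptides and clears them. In a healthy adult heart Nppa is mainly an atrial gene, and its return in the ventricle is a widely used sign of load.

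The embolised ventricle carried far more Nppa RNA in both regions. Nppa rose 13.8-fold in the apex and 23.9-fold in the outflow tract, and Nppb rose 1.99-fold in the outflow tract, with a 2.27-fold difference in the apex that did not pass the test over all probe sets. Npr2 rose 1.24-fold in the outflow tract. No call was made for Npr1, Npr3, Nppc or Furin in any of the 5 comparisons. Calls required an adjusted p under 0.05 in limma, with the Benjamini-Hochberg adjustment over all 31042 probe sets tested. Fold changes are those of signal + 16, with the 95% interval of the model, which understates changes of dim genes.

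In the apex 1 of 7 measured members was called after PE, against 0.0129% of all probe sets. At an unadjusted p under 0.05 the apex gave 2 members, Nppa and Nppb, and 7.47% of probe sets. In the outflow tract 3 of 7 members passed, all higher, against 34.5% of probe sets in either direction and 19.6% higher. The outflow count is a share near that background and is not read as a result about the members. The median log2 difference of the measured members was 0.04 in the apex and 0.41 in the outflow tract, beside 0 and 0.1 over all genes. Between the regions of vehicle rats 0 of 7 members and 0% of probe sets were called by limma. At an unadjusted p under 0.05 this comparison gave 0 members and 3.71% of probe sets. Between the regions of PE rats 1 member, Npr2, was called, against 28.7% of probe sets. For the difference between the PE effects of the 2 regions 0 members were called by limma and 1, Npr2, had an unadjusted p under 0.05, against 17.9% and 30.1% of probe sets.

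In the PE outflow group 3 of 5 arrays, replicates 2, 4 and 5, stood apart in a measure of RNA quality. For the GAPDH controls, signal at the 3' end over that at the 5' end, a ratio that is higher in degraded RNA, was 1.38 to 1.83 on the 15 other arrays. On PE outflow replicates 1 to 5 it was 1.71, 6.12, 1.7, 2.2 and 2.34. The tissue pieces also differed in their marker genes. Fibroblast markers summed to 39730 to 65930 units of signal on the 15 other arrays and to 89920 to 104100 on the PE outflow arrays, and 5 of 6 of them rose there with PE. All 5 macrophage, all 6 measured cartilage and tendon, all 3 measured nerve and 3 of 4 adipocyte markers rose there too. Over all genes 26.3% rose and 18% fell in the outflow tract. In the apex limma called 0 of the markers of these 5 kinds. At an unadjusted p under 0.05, 4 of 6 fibroblast, 4 of 5 macrophage and 3 of 3 nerve markers were higher there. So were 1 of 6 cartilage and tendon (Tnmd), 1 of 4 adipocyte (Adipoq) and 2 of 7 smooth muscle and pericyte markers (Acta2 and Pdgfrb). This threshold was met by 7.47% of all probe sets in the apex, in either direction. Of 5 measured endothelial markers 2 rose and 1 fell in the outflow tract, and 0 were called by limma in the apex. The ventricular muscle markers, a check of the tissue label, were all measured and bright in every group, Irx4 in PE outflow having the lowest mean signal of 445.2 ± 217 (SD, n = 5). In the PE outflow group 4 of 8 of them fell, and the sum ranged from 113100 to 310300, against 205600 to 271700 on the other arrays. Replicate 2, with the GAPDH ratio of 6.12, stood apart here too. Myl2 was at 61840 on it, at 22030 to 30090 on PE outflow replicates 1, 3, 4 and 5, and at 35350 to 47920 on the 15 other arrays. For Tnni3 the values were 49130, 19880 to 26410 and 36860 to 49100. In such bulk tissue, fewer cells of a type and less RNA per cell cannot be told apart. The part of RNA quality and of cell makeup in the results on the outflow tract was not tested beyond the values given beside them.

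The hormone genes lie next to each other on rat chromosome 5, with Nppb upstream of Nppa on the same strand. Because both were higher after PE, the 250 bases before each start site are shown (RefSeq, build GRCr8, + strand), at chr5:163711934-163712183 for Nppa and chr5:163699758-163700007 for Nppb. Capitals mark matches to TGATAA (a motif of GATA factors), GGAATG (the M-CAT motif of TEAD factors) and TATAAA (the TATA box), searched on both strands.
Nppa: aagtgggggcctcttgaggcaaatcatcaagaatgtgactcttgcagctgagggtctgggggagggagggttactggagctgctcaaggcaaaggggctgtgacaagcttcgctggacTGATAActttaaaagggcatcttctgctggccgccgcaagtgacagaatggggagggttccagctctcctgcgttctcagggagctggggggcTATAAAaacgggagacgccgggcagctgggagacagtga
Nppb: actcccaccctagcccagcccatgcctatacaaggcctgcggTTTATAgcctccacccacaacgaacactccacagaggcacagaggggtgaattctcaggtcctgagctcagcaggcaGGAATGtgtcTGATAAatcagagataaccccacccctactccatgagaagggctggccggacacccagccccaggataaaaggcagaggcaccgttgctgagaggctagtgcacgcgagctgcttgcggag
Both windows hold TGATAA, 132 to 127 bases before the start of Nppa and 121 to 116 bases before that of Nppb. Of 33469 rat promoter windows of this length, 7.97% hold TGATAA on either strand. TATAAA stands 39 to 34 bases before the start of Nppa, and in the Nppb window it is found on the opposite strand (TTTATA) at 208 to 203 bases. It is present in 12.9% of windows, and 1.65% hold both TGATAA and TATAAA. The M-CAT letters GGAATG are found in the Nppb window of this pair, at 131 to 126 bases, and in 12.1% of all windows. The motifs were chosen after both sequences had been read, do not overlap each other here, and are letters in a window, not sites shown to be bound. Promoter windows were at hand for 6 of the 8 genes, and the windows of Npr1, Npr3 and Corin hold none of the 3 motifs, while that of Nppc holds TATAAA.

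Nppa encodes the precursor of atrial natriuretic peptide. In vehicle rats its signal on replicates 1 to 5 was 876, 563, 1588, 435 and 941 in the apex and 364, 1383, 790, 430 and 528 in the outflow tract. In PE rats it was 9457, 2888, 15897, 16176 and 24985 in the apex and 14289, 16017, 22756, 13579 and 11397 in the outflow tract. Every PE array therefore lay above every vehicle array, the lowest being apex replicate 2 at 2888 and the highest vehicle array 1588. The mean signal went from 880.5 ± 448 (SD, n = 5) to 13880 ± 8260 in the apex and from 698.9 ± 415 to 15610 ± 4330 in the outflow tract. The log2 rise was 3.78 ± 0.48 (SE) in the apex, with a fold interval of 6.89 to 27.5 and a limma adjusted p of 0.00591. In the outflow tract it was 4.58 ± 0.48, with a fold interval of 12 to 47.8 and a limma adjusted p of 7.52e-07. This order, every PE array above every vehicle array of the same region, held for 1.56% of probe sets in the apex and 13.4% in the outflow tract. The reverse order, also without overlap, held for 1.5% and 9.98%. When only the apex groups were fitted, the log2 value stayed at 3.78 and the limma adjusted p was 0.0979, so the apex call uses the spread shared over the 4 groups. Nppa was called in the other 21 of 22 settings tried in the apex and in 23 of 23 in the outflow tract. With only the PE outflow replicates whose GAPDH ratio was low, 1 and 3, the outflow value was 4.83 (limma adjusted p = 8.56e-05).

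The arrays of the PE apex group spread widely for Nppa. The highest was 8.65 times the lowest there, against 2 times in the PE outflow group, 3.65 times in the vehicle apex group and 3.8 times in the vehicle outflow group. Ordered by mean signal, the groups ran from vehicle outflow through vehicle apex and PE apex to PE outflow, and the neighbours at either end did not differ beyond their spread. The log2 difference of outflow minus apex was -0.36 ± 0.48 in vehicle rats and 0.44 ± 0.48 in PE rats (limma adjusted p = 1 and 0.555). The second of these was -0.05 without PE apex replicate 2. The PE effect of the outflow tract exceeded that of the apex by 0.8 ± 0.67 on the log2 scale, with an interval of -0.62 to 2.21 and a limma adjusted p of 0.48. Without PE apex replicate 2 this difference was 0.31. The interval holds both equal effects and an outflow effect 4.62 times that of the apex.

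**Figure D1:**
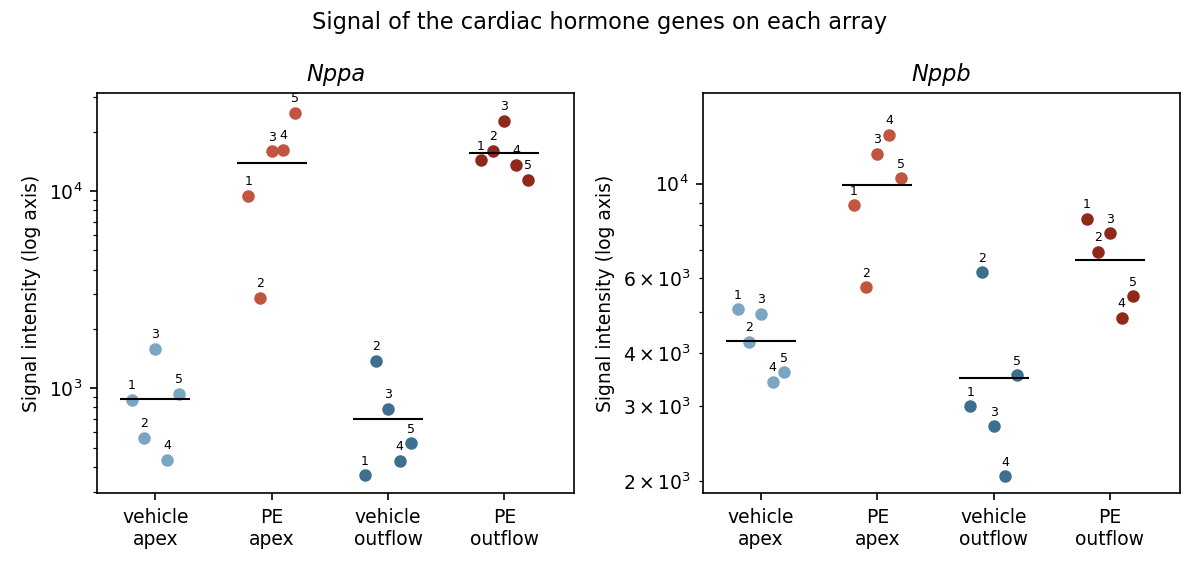
Signal intensity of Nppa and Nppb on a log axis for the 4 groups of 5 arrays, 1 point per array with its replicate number and a bar at the group mean. All 10 PE arrays of Nppa sit above all 10 vehicle arrays, while for Nppb vehicle outflow replicate 2, at 6189, lies above 2 PE outflow arrays.

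Nppb encodes the precursor of B-type natriuretic peptide and was already bright in vehicle rats, with a mean log2(signal + 16) of 12.04 in the apex and 11.68 in the outflow tract. Its vehicle signals on replicates 1 to 5 were 5065, 4255, 4951, 3430 and 3612 in the apex and 3003, 6189, 2691, 2056 and 3544 in the outflow tract. The PE signals were 8895, 5716, 11766, 13026 and 10313 in the apex and 8272, 6927, 7646, 4844 and 5432 in the outflow tract. In the apex every PE array lay above every vehicle array, as for 1.56% of probe sets, and in the outflow tract 2 of 5 PE arrays lay within the vehicle range. The mean signal was 4263 ± 747 (SD, n = 5) and 9943 ± 2830 in the apex of vehicle and PE rats, and 3497 ± 1600 and 6624 ± 1450 in the outflow tract. The apex difference was 1.18 ± 0.26 (SE) on the log2 scale, or 2.27-fold (1.56 to 3.31), with an unadjusted p of 0.000217 and a limma adjusted p of 0.16. The outflow rise was 0.99 ± 0.26, or 1.99-fold (1.37 to 2.9), with a limma adjusted p of 0.00517. The adjustment weighs a given p against all other probe sets, few of which had a small p in the apex, so a smaller difference was called in the outflow tract and a larger one was not called in the apex. The effects of the 2 regions differed by -0.19 ± 0.37 (limma adjusted p = 0.791), with an interval of -0.96 to 0.58, and the sign turned without vehicle outflow replicate 2 (0.04) and with PE outflow replicates 1 and 3 alone (0.1). Without PE apex replicate 2 the apex value was 1.37 and passed (limma adjusted p = 0.0479), the 1 setting of 22 in which it was called.

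Arrays of the same treatment and replicate number deviated together and are treated here as 1 rat. For Nppb the regions of most rats differed in the same direction. The outflow array lay below the apex array in 4 of 5 vehicle rats and 4 of 5 PE rats, and replicate 2 was the exception in both. In vehicle replicate 5 and PE replicate 1 the gap was small, at -0.03 and -0.1 on the log2 scale. The log2 difference of outflow minus apex was -0.37 ± 0.26 in vehicle rats and -0.56 ± 0.26 in PE rats (limma adjusted p = 1 and 0.12). Neither passed the test. Without PE apex replicate 2 the PE value was -0.74 (limma adjusted p = 0.0358), the 1 setting of 23 in which it was called. Nppa was likewise lower in the outflow array in 4 of 5 vehicle rats, with replicate 2 the exception and a gap of only -0.02 in replicate 4. In PE rats Nppa was higher in the outflow array in 3 of 5.

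**Figure D2:**
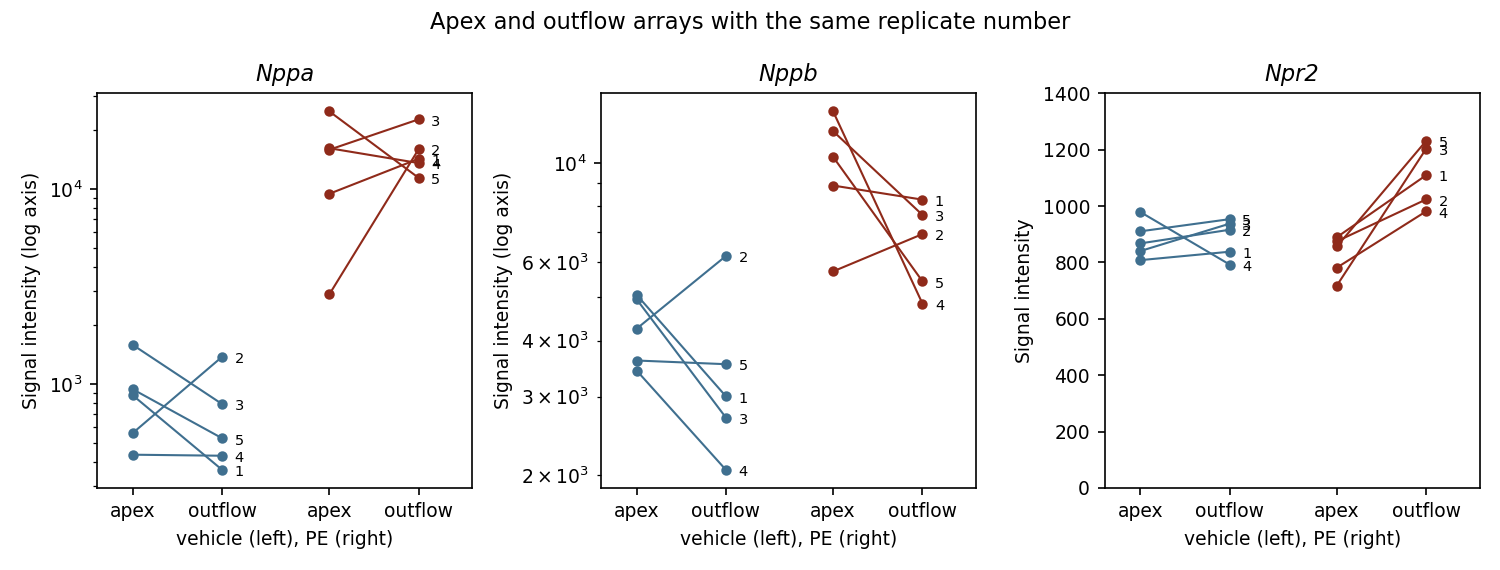
Signal of Nppa and Nppb (log axes) and of Npr2 (linear axis from 0) in the apex and the outflow tract, with a line joining arrays of the same treatment and replicate number. Npr2 is higher in the outflow tract in 5 of 5 PE rats, and Nppb is lower there in 4 of 5 rats of each treatment. The Nppb gap is small in vehicle replicate 5 and PE replicate 1.

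The hormone genes moved by different amounts. The fold of Nppa after PE was 6.07 times that of Nppb in the apex and 12 times in the outflow tract. The log2 ratio of Nppa to Nppb on an array was higher on every PE array than on every vehicle array of the same region, a comparison chosen after the values had been seen and given without a test. Array by array, however, they varied together. After subtracting each group mean, the log2 signals of Nppa and Nppb correlated at r = 0.73 over 20 arrays (rho = 0.69), and 15 of 20 arrays deviated in the same direction for both. PE apex replicate 2 was the lowest of its group for both genes, and vehicle outflow replicate 2 the highest. The correlation was 0.7 without PE apex replicates 2 and 5, the arrays farthest from their group in Nppa. Both values of a pair come from the same array, so they share its scaling and its piece of tissue.

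Among 8128 genes with a mean log2 signal above 8, Nppb was the gene most like Nppa by such deviations, followed by Nfkbia (r = 0.72), an inhibitor of NF-kappaB, Inpp5f (0.68), Myl4 (0.67), the atrial essential myosin light chain, Tapbp (0.67) and Ctdp1 (0.67). For Nppb the order was Lcn2 (0.75), which encodes lipocalin 2, Nppa (0.73), Unc5b (0.73), a netrin receptor, Tppp3 (0.7), Zdhhc13 (0.67) and Wt1 (0.67). By the log2 signal itself, which carries the differences between groups, Nppa was most like Sbsn (0.9), Osbpl9 (0.9), Col4a1 (0.9), a chain of basement membrane collagen, Arhgap42 (0.87), Prnp (0.86) and Ccn2 (0.86), the gene of a matrix-associated growth factor. Nppb ranked 15 in that order for Nppa, with 0.85, and Nppa ranked 2 for Nppb after Bex1 (0.87). Maoa (0.81), Sbsn (0.77), Tmem184c (0.75) and Tnfrsf12a (0.75) followed. These are descriptions over 20 arrays, picked as the highest of 8128 genes, with no test.

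Since Nppa is an atrial gene, atrial markers were read on the same arrays. Myl7, the atrial regulatory light chain, was at 11730 on PE apex replicate 5 and 5480 on PE outflow replicate 3, and at most 2042 on the other 18 arrays, vehicle arrays included. Without those 2 arrays, a choice made after seeing the data, the log2 rise of Nppa was 3.49 in the apex and 4.43 in the outflow tract (limma adjusted p = 0.0397 and 3.89e-06). On PE apex replicates 1 to 4 Myl7 was at 1023, 180.9, 1011 and 511.2, and on vehicle apex replicates 1 to 5 at 530.4, 1868, 219.2, 470.2 and 368.1. Replicates 1 and 3 of PE apex thus lay above 4 of 5 vehicle apex arrays, and replicate 2 below all 5. The 2 arrays of highest Myl7 were also the highest of their groups for Nppa, at 24985 and 22756, and for Myl4. PE apex replicate 2 was the lowest of its group for Nppa (2888), Myl7 (180.9) and Myl4 (339.8). For Myl7 the vehicle apex group differed, as replicate 3 had its highest Nppa (1588) and its lowest Myl7 (219.2). The part of atrial tissue in the rise of Nppa, and in its spread within the PE apex group, was not tested. Myl4 rose in the outflow tract (log2 3.07 ± 0.65, limma adjusted p = 0.000913) and had 2.29 ± 0.65 in the apex (limma adjusted p = 0.346). Its PE arrays all lay above the vehicle arrays of the same region, as for 1.56% of probe sets in the apex and 13.4% in the outflow tract. Sln, which encodes the atrial calcium pump regulator sarcolipin, had -1.51 ± 1.12 in the apex and -1.66 ± 1.12 in the outflow tract and was not called. Of the 9 atrial markers listed, 8 were measured. In the outflow tract 3 of them rose (Myl4, Dkk3 and Nr2f2), 2 fell (Tbx5 and Kcnj3) and 3 were not called, with a median of -0.27, and 0 were called by limma in the apex (1, Myl4, at an unadjusted p under 0.05), with a median of 0.17. Their summed signal was 6166 to 8881 on vehicle apex arrays, 5586 to 27160 on PE apex arrays, 6007 to 8763 on vehicle outflow arrays and 10740 to 21810 on PE outflow arrays.

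Npr2 encodes NPR-B, the receptor of C-type natriuretic peptide. In vehicle rats its signal on replicates 1 to 5 was 808, 868, 841, 979 and 911 in the apex and 838, 916, 938, 793 and 954 in the outflow tract. In PE rats it was 890, 875, 718, 782 and 857 in the apex and 1110, 1024, 1204, 982 and 1232 in the outflow tract. All 5 PE outflow arrays lay above all 15 others, by the narrow margin of 981.7 against 979.2, a pattern that 8.42% of probe sets showed. The mean signal was 881.4 ± 66.3 (SD, n = 5) in vehicle apex, 824.4 ± 72.5 in PE apex, 887.8 ± 69.3 in vehicle outflow and 1110 ± 109 in PE outflow. Npr2 rose in the outflow tract after PE by 0.32 ± 0.1 (SE) on the log2 scale, or 1.24-fold (1.07 to 1.45, limma adjusted p = 0.022). In the apex the difference was -0.1 ± 0.1 (limma adjusted p = 0.884). Between the regions of PE rats it was higher in the outflow tract by 0.42 ± 0.1, or 1.34-fold (1.15 to 1.56, limma adjusted p = 0.00404), and in 5 of 5 rats.

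The outflow rise of Npr2 is small and depends on the scaling. Centring each array on its median, which moved the median outflow difference of all probe sets from 0.05 to -0.08, left Npr2 at 0.18 (limma adjusted p = 0.273), and quantile normalization left it at 0.25 (0.0633). It lost its call in 8 of 23 settings, among them leaving out vehicle outflow replicate 1 or 4 or PE outflow replicate 3 or 5, with limma adjusted p from 0.0503 to 0.0629. The higher level in the outflow tract than in the apex of PE rats was called in 23 of 23 settings, with log2 values from 0.33 to 0.48. The PE effect on Npr2 differed between the regions by 0.41 ± 0.15, with an interval of 0.11 to 0.72, and did not pass (limma adjusted p = 0.0573). With the rat as a block the same difference passed (limma adjusted p = 0.0472).

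**Figure D3:**
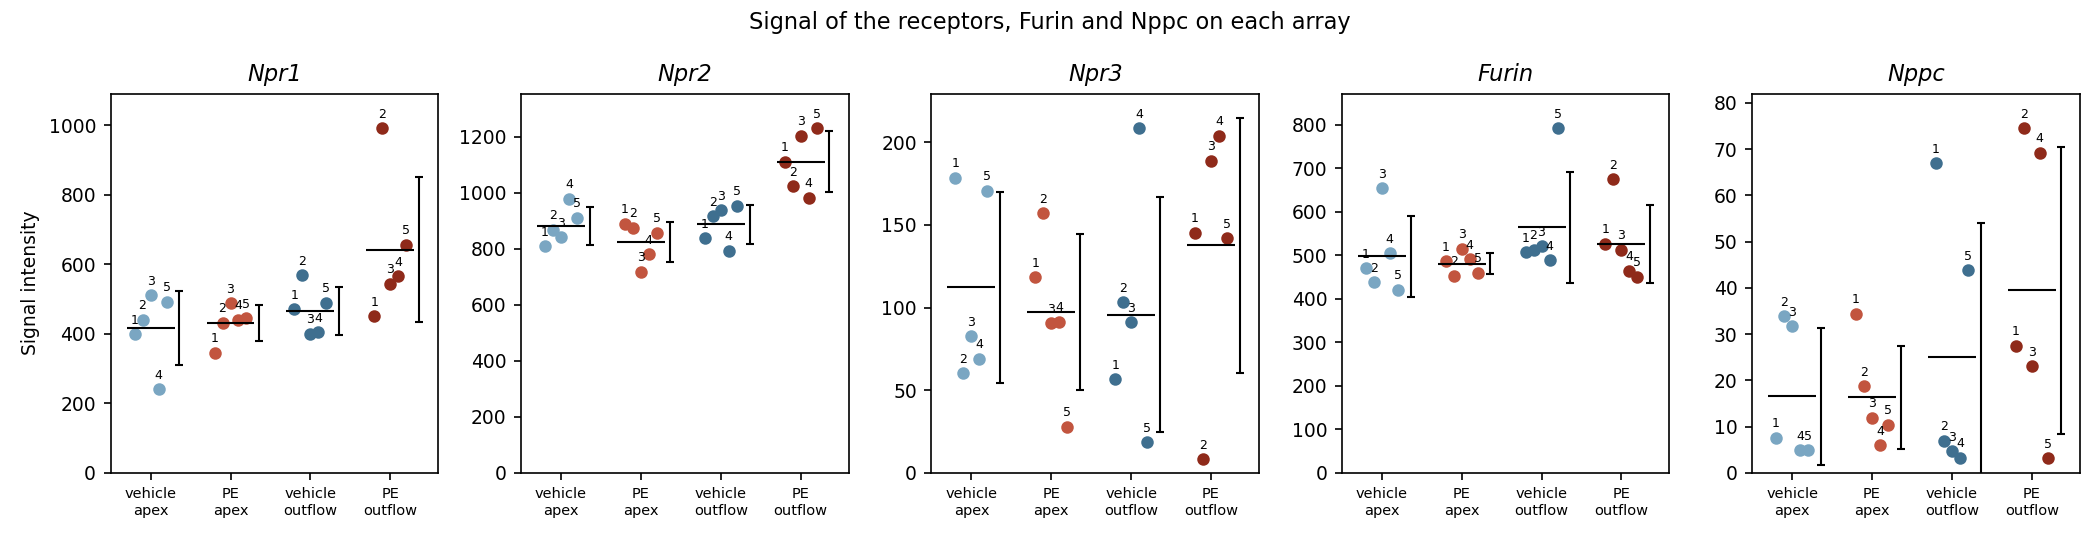
Signal intensity of Npr1, Npr2, Npr3, Furin and Nppc on linear axes from 0 for the 4 groups, 1 point per array with its replicate number, a bar at the mean and a whisker of 1 SD (n = 5). The Npr2 points of PE outflow, 982 to 1232, lie above all others, and PE outflow replicate 2 stands apart for Npr1 (991) and Npr3 (8.29).

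Npr1 encodes NPR-A, the receptor through which both cardiac hormones raise cGMP. Its vehicle signals on replicates 1 to 5 were 399, 440, 510, 241 and 492 in the apex and 470, 567, 400, 403 and 489 in the outflow tract. Its PE signals were 345, 431, 487, 440 and 445 in the apex and 450, 991, 544, 566 and 655 in the outflow tract. The PE outflow arrays overlapped the vehicle outflow arrays, and replicate 2, the array with the GAPDH ratio of 6.12, was the highest by far. The outflow difference was 0.41 ± 0.2 (SE) on the log2 scale (limma adjusted p = 0.136), 0.24 without replicate 2 and 0.01 with the GAPDH ratio as a covariate. Between the regions of PE rats Npr1 was higher in the outflow array of 5 of 5 rats, by 0.52 ± 0.2 (limma adjusted p = 0.0637). This value was 0.35 without replicate 2 and 0.16 with the covariate. The fit of the covariate rests mainly on replicate 2, since the ratio was at most 2.34 on every other array. In the apex the PE difference was 0.08 ± 0.2, with an interval of -0.35 to 0.5, so a rise of the receptor on the scale of that of Nppa lies outside the interval.

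Npr3 encodes the clearance receptor NPR-C, and its probe set may detect more than 1 transcript form. In vehicle rats its signal on replicates 1 to 5 was 179, 60.2, 82.8, 69 and 171 in the apex and 56.6, 103, 91.3, 209 and 18.5 in the outflow tract. In PE rats it was 118, 157, 90.6, 91.3 and 27.8 in the apex and 145, 8.29, 189, 204 and 142 in the outflow tract. The groups overlapped, and PE outflow replicate 2, at 8.29, was the lowest of all 20 arrays. The outflow difference was 0.39 ± 0.56 (SE) on the log2 scale (limma adjusted p = 0.655). It was 0.97 ± 0.46 without replicate 2 (0.108) and 1.53 ± 0.56 with the GAPDH ratio as a covariate, the 1 setting of 23 in which it was called (0.0423). Since the fit of that covariate rests mainly on replicate 2, these are not separate checks of RNA quality. In the apex the difference was -0.2 ± 0.56 (limma adjusted p = 0.969), and its interval of -1.38 to 0.98 is wide. Npr3 is also a marker of the endocardium, and the other 5 genes of the 6 on that marker list (Cytl1, Nfatc1, Plvap, Tmem100 and Hapln1) rose in the outflow tract. Of all genes 26.3% rose there, and most markers of several other cell types rose too, as given above. The part of endocardial content in the values of Npr3 was not tested.

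Furin encodes a general proprotein convertase of the secretory pathway. Its signals on replicates 1 to 5 of the vehicle groups were 470, 437, 654, 505 and 421 in the apex and 507, 512, 521, 488 and 792 in the outflow tract. Its PE signals were 486, 453, 515, 491 and 459 in the apex and 526, 674, 513, 464 and 450 in the outflow tract. The groups overlapped throughout. The PE difference was -0.03 ± 0.15 (SE) on the log2 scale in the apex and -0.09 ± 0.15 in the outflow tract (limma adjusted p = 0.986 and 0.702). The intervals of -0.34 to 0.28 and -0.4 to 0.22 bound any change of Furin well below that of Nppa.

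Nppc, the C-type peptide gene, was dim. Its probe set was brighter on average than only 15.3% of the probe sets tested, against 44% to 97.5% for the other members, and its signal ranged from 3.15 to 74.5 over all arrays. The mean was 16.57 ± 14.8 (SD, n = 5) in vehicle apex, 16.28 ± 11.1 in PE apex, 25.09 ± 28.8 in vehicle outflow and 39.48 ± 31 in PE outflow. The groups overlapped, and the PE difference was 0.04 ± 0.46 in the apex and 0.5 ± 0.46 in the outflow tract on the log2 scale (limma adjusted p = 0.994 and 0.457). The intervals of -0.92 to 1 and -0.46 to 1.45 are wide.

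**Figure D4:**
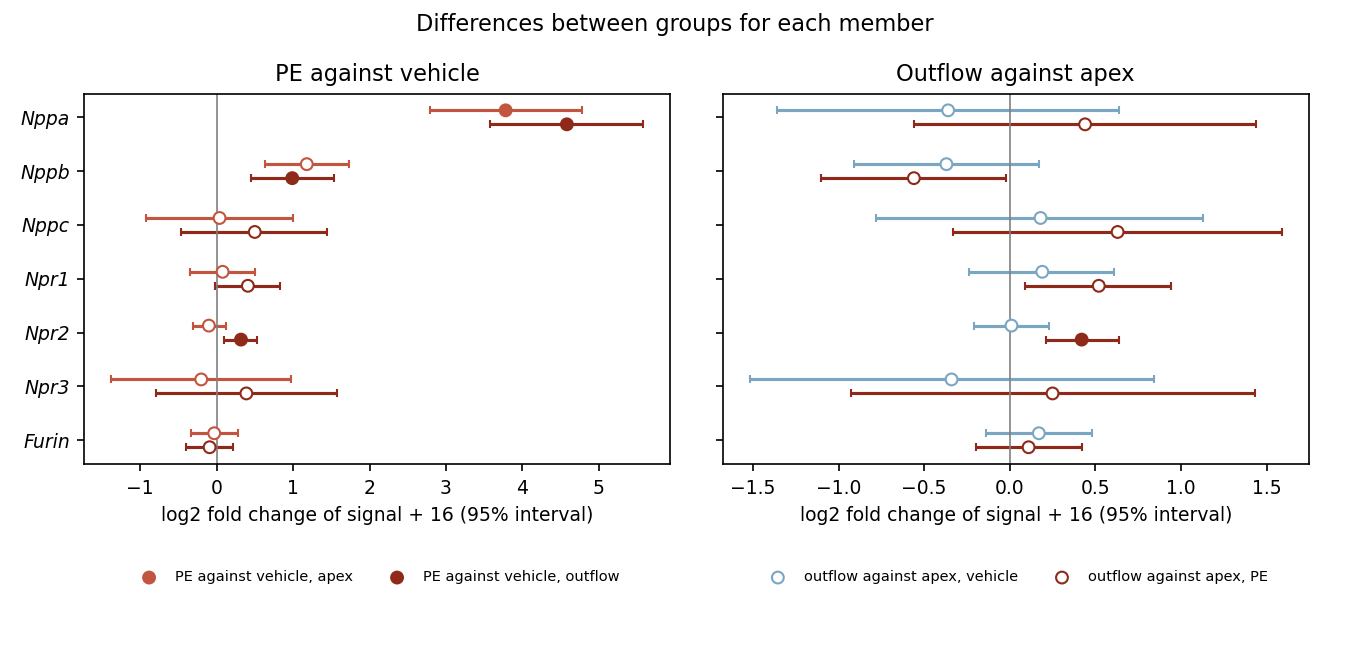
Log2 fold change of signal + 16 for the 7 measured members, with 95% intervals, for PE against vehicle (left) and outflow against apex (right). Filled points passed an adjusted p under 0.05: Nppa in both regions, Nppb and Npr2 in the outflow tract, and Npr2 between the regions of PE rats.

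Of 11 other genes listed for peptide cleavage and clearance 9 were measured, all of them enzymes. In the outflow tract 2 rose, 2 fell and 5 were not called, with a median log2 difference of 0.11. Over all genes 26.3% rose, 18% fell and the median was 0.1, so these counts are near the background and are not read as a result about the enzymes as a group. Pcsk5, a convertase related to furin, rose by 1.67 ± 0.26 (SE, limma adjusted p = 4.25e-05), and its mean signal was 126.1 ± 25 (SD, n = 5) in vehicle and 434.7 ± 82.4 in PE rats. Ece1, the endothelin converting enzyme, rose by 0.77. Pcsk6, a convertase reported to activate corin, fell by 0.39 (limma adjusted p = 0.0089), and Dpp4, a dipeptidyl peptidase that trims B-type natriuretic peptide, fell by 0.5. The main degrading enzyme neprilysin, Mme, had 0.35 ± 0.32 and was not called, nor was Ide, the insulin degrading enzyme, at -0.16 ± 0.12. In the apex 0 of 9 were called by limma, and 1, Pcsk5, had an unadjusted p under 0.05, with a median of 0.14 (0 over all genes). The PE effect differed between the regions for Pcsk5 (1.1 ± 0.36, limma adjusted p = 0.0407) and Pcsk6 (-0.48 ± 0.16, 0.0391).

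Of 20 genes of the cGMP pathway that the receptors feed 19 were measured, and in the outflow tract 6 rose, 3 fell and 10 were not called, with a median of 0.02. These counts too are near the 26.3% and 18% of all genes that rose and fell, and what follows describes single genes. Irag1, a substrate of cGMP kinase in smooth muscle, rose by 1.78 ± 0.18 (SE, limma adjusted p = 5.8e-07), and its mean signal was 383.6 ± 42.4 (SD, n = 5) in vehicle and 1411 ± 398 in PE rats. Both main subunits of soluble guanylyl cyclase, which answers to nitric oxide, rose, Gucy1b1 by 0.99 and Gucy1a1 by 0.95. The phosphodiesterase genes Pde3b (1.1) and Pde1a (0.86) and the kinase substrate gene Vasp (0.52) rose as well. Pde2a (-0.72), Pde9a (-0.63), whose enzyme is specific for cGMP, and the exporter gene Abcc4 (-0.57) fell. Pde5a, the target of sildenafil, had -0.5 ± 0.43 and was not called.

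In the apex 0 of 19 cGMP genes were called by limma, and 2, Pde3a and Gucy1b1, had an unadjusted p under 0.05, with a median of 0.12. Pde3a, a cGMP-inhibited phosphodiesterase of heart muscle, was dim, with a mean signal of 19.13 ± 14.3 (SD, n = 5) in vehicle apex, 73.22 ± 28.1 in PE apex, 54.45 ± 21.1 in vehicle outflow and 23.01 ± 24.7 in PE outflow. It had 1.37 ± 0.4 in the apex (limma adjusted p = 0.351) and -1 ± 0.4 in the outflow tract (0.06), and its PE effect differed between the regions by -2.37 ± 0.57 (0.00703). Its vehicle regions, which enter that difference, were themselves apart by 1.04 ± 0.4, outflow minus apex, with an unadjusted p of 0.0175 and a limma adjusted p of 1. The other differences between regions were those of Irag1 (1.61 ± 0.26), Gucy1a1 (0.88 ± 0.25), Pde2a (-0.86 ± 0.22) and Pde9a (-0.75 ± 0.24), with limma adjusted p from 0.000557 to 0.0342. Smooth muscle markers moved beside Irag1: 5 of 7 rose in the outflow tract and 1 fell, and their summed signal was 20620 to 42620 there in PE rats against 6973 to 13560 on the other arrays. Their part in the rise of Irag1 was not tested.

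**Figure D5:**
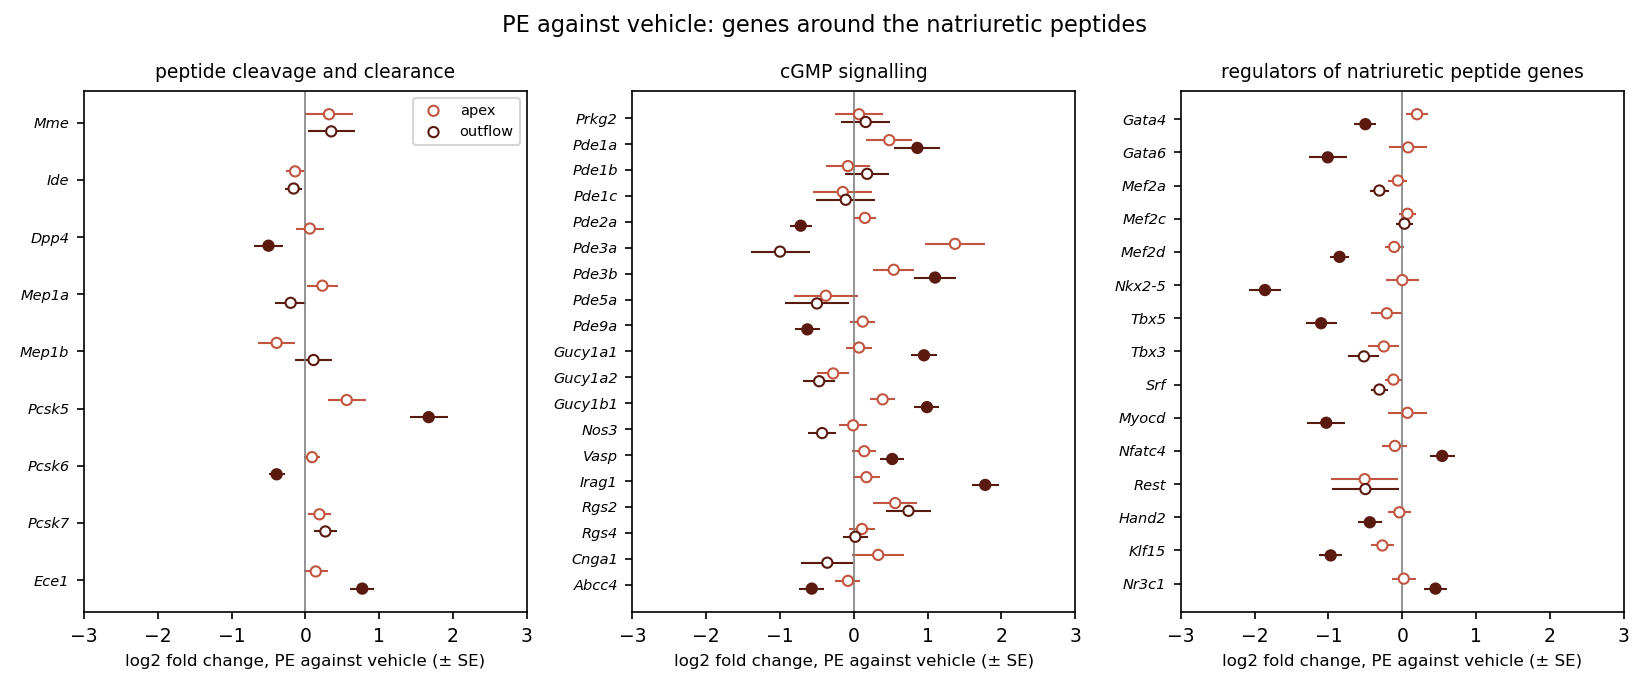
Log2 fold change of PE against vehicle (± SE) for measured genes of peptide cleavage and clearance, cGMP signalling and the regulators of natriuretic peptide genes, in the apex and the outflow tract. Filled points passed an adjusted p under 0.05, and all of them belong to the outflow tract, with Irag1 at 1.78 and Nkx2-5 at -1.86 farthest from 0.

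Of 16 listed transcription factors and cofactors that regulate Nppa and Nppb 15 were measured, and in the outflow tract, where Nppa rose, 8 fell, 2 rose and 5 were not called, with a median of -0.5. Over all genes 18% fell and 26.3% rose there, with a median of 0.1. The list was chosen with earlier results of these data known, so its counts beside these shares are a description and not a test. Nkx2-5, a homeobox factor of heart muscle, fell by 1.86 ± 0.22 (SE, limma adjusted p = 2.73e-06), and its mean signal was 2816 ± 415 (SD, n = 5) in vehicle and 821.3 ± 350 in PE rats. Tbx5, a T-box factor of atrial and left ventricular muscle, fell by 1.1, Myocd, the coactivator of serum response factor, by 1.03, Gata6 by 1.01, Klf15, a repressor of hypertrophic genes, by 0.97, Mef2d by 0.85, Gata4 by 0.5 and Hand2 by 0.44. Nfatc4, which calcineurin activates, rose by 0.54, and the glucocorticoid receptor gene Nr3c1 by 0.45. Srf had -0.31 ± 0.12 and was not called.

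In the apex, where Nppa also rose, 0 of 15 regulators were called by limma and 0 had an unadjusted p under 0.05, with a median of -0.06, and Nkx2-5 had 0 ± 0.22. The PE effect was lower in the outflow tract than in the apex for 6 of 15 and higher for 0, beside 10.2% and 14.1% of all genes. These were Nkx2-5 (-1.86 ± 0.31), Myocd (-1.1 ± 0.37), Tbx5 (-0.89 ± 0.3), Mef2d (-0.74 ± 0.18), Gata4 (-0.7 ± 0.21) and Klf15 (-0.7 ± 0.23), with limma adjusted p from 0.000802 to 0.0436. These falls stand beside those of the ventricular muscle markers given above, with a median of -0.51 in the outflow tract, and the part of muscle content was not tested. Only RNA was measured, so the activity of these factors is not known from these arrays.

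Other genes commonly read as signs of cardiac load had smaller differences than Nppa. Of 10 measured, 3 rose in the outflow tract (Edn1, the endothelin precursor, by 1.79 ± 0.28, Lgals3, galectin 3, by 1.29 and Adm, adrenomedullin, by 0.6), 1 fell (Myh6, the fast cardiac myosin, by 0.65) and 6 were not called, with a median of 0.21. The count that rose is near the 26.3% of all genes. Among the 6 that were not called were Acta1, skeletal actin, at -0.2 ± 0.2, Ankrd1 at -0.44 ± 0.17, Myh7, the slow myosin, at -0.35 ± 0.25 and Gdf15 at 0.33 ± 0.31. In the apex 0 of 10 were called by limma, with a median of 0. The 2 with an unadjusted p under 0.05 were Edn1, at 0.65 ± 0.28, and Adm, at 0.52 ± 0.2. For Edn1 every PE array lay above every vehicle array, as for 1.56% of probe sets. For Adm 1 of 5 PE arrays lay inside the vehicle range.

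The genes around the hormone pair had small differences in the apex. Within 100 kb of the pair the RefSeq table of build GRCr8 lists 14 genes, of which 6 besides Nppa and Nppb were measured: Mfn2, Plod1, 2510039O18Rikl, Clcn6, Agtrap and Draxin. In the apex 0 of these 6 were called by limma and 1, Plod1, had an unadjusted p under 0.05, with log2 differences from -0.23 (Mfn2) to 0.33 (Plod1), beside 3.78 for Nppa. In the outflow tract Agtrap, whose protein binds the angiotensin receptor, rose by 0.77 ± 0.16, Plod1, a collagen lysyl hydroxylase, by 0.68 ± 0.13 and Clcn6, a chloride transporter and the next gene beyond Nppa, by 0.58 ± 0.13, while Mfn2, a mitochondrial fusion protein, fell by 1.05 ± 0.21. Clcn6 was the 1 neighbour whose PE effect differed between the regions (0.73 ± 0.18, limma adjusted p = 0.00745).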

How the data were processed

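Total RNA (5 microgram per sample) was turned into biotin-labelled cRNA and hybridised to 1 array each, per the labels' protocols. The deposited values are linear signal intensity per probe set and array. The software that made them is not given in the sources used here. The mean signal of every array after leaving out 2% at either end was 500.2, so the authors' values were already scaled to a common level. Array medians were 123 to 159.4. Precision is limited by the number of arrays.

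The 57 control probe sets were left out and 31042 tested. The platform annotation gave 1 symbol for 20826, several for 436 and none for 9780, and a gene was represented by its brightest probe set. Signals were transformed to log2 after adding 16, and 4 group means were fitted to all 20 arrays with limma 3.58.1 (lmFit, eBayes) in R 4.3.3. The 5 comparisons were PE against vehicle in each region, the difference of these effects, and outflow against apex in each treatment. The fitting was tested on simulated data. The text names all members, called genes of the lists, or else up to 4 with the smallest p per list, all measured neighbours, and the 6 genes most like Nppa or Nppb. Some uncalled list genes, neighbours and atrial markers were chosen for their role, with values seen. Members and lists were chosen with earlier results of these data known. Of the listed genes, Pcsk1, Ostn, Prkg1 and Tbx20 are not analysed here, nor is a protein sequence of any member.

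Replicate numbers were taken to pair the regions within a treatment. The titles name no rat, so the pairing rests on the arrays and the correlations are weak. Deviations from group means over 12310 probe sets correlated between same-numbered apex and outflow arrays at 0.181 to 0.275 in vehicle and 0.181 to 0.283 in PE rats, and 5 of 5 matched their own number best in both. Between vehicle and PE rats the values were -0.283 to 0.154, and 1 of 5 matched in each region, so numbers do not pair treatments. Alternatives were other added values (1 and 64), quantile normalization, median centring, a filter on dim probe sets, other variance models, array weights, the GAPDH ratio, fewer groups, replicate blocks and leaving out each array.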

Additional observations from a re-analysis of the deposited data

Results flagged for a closer look

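In 2 of 28 sets of 5 arrays (7 genes in 4 groups) 1 array lay far from the others, where the gap to its nearest neighbour divided by the range of the group exceeded 0.71, and chance marks about 1 in 20 such sets. For Npr3, the clearance receptor, PE outflow replicate 2 was at 8.29 while the other 4 arrays of the group were at 142 to 204. On the log2 scale these are 4.6 and 7.3 to 7.78, a ratio of 0.85. This array had the GAPDH ratio of 6.12, and the part of RNA quality in the low value was not tested. For Furin, vehicle outflow replicate 5 was at 792 and the other 4 at 488 to 521. On the log2 scale these are 9.66 and 8.98 to 9.07, a ratio of 0.867. Without it the outflow difference of Furin after PE was 0.04 instead of -0.09 on the log2 scale and remained uncalled by limma. The GAPDH ratio of that array was 1.38.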

How the results depend on the processing

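Over 842 combinations of 35 member results and settings, 789 kept direction and side of the threshold, 9 lost a call, 16 gained one and 28 changed sign. Where no value is given beside a change, the cause was not tested. Members called in the outflow tract after PE numbered 2 to 3 when 1 array was left out, and 0 members were called between the regions of vehicle rats in every setting. Fitting only the compared groups gave 0 members in the apex, instead of 1. The difference between the regions' PE effects gave 1 member (Npr2) instead of 0 with 64 added, without the 40% dimmest probe sets, with a trend and robust variances, with array weights and with the GAPDH covariate. Outflow against apex in PE rats gave 2 members (Npr2 and Npr1) instead of 1 with 64 added, without the dimmest probe sets and with a trend and robust variances. Leaving out 1 array gave 1 to 2 members in the apex, 0 to 1 for the difference and 1 to 2 between the regions of PE rats.

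Among replicate blocks, the rat as a random block (consensus correlation 0.0651) gave 1 member for the difference between regions, Npr2, and the replicate number as a fixed block gave 2 between the regions of PE rats, Npr2 and Npr1. No other member call changed with either block.

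Only uncalled values changed sign. With array weights these were Nppc in the apex (-0.01) and, between the regions of vehicle rats, Nppc (-0.06) and Npr2 (0). With the GAPDH covariate they were Npr1 for the difference of effects (-0.08) and Furin between the regions of PE rats (-0.03), and with PE outflow replicates 1 and 3 alone Nppb for the difference (0.1). Without the 2 arrays of highest Myl7, a setting added after seeing the data, they were Npr3 in the apex (0.11) and between the regions of PE rats (-0.24). Leaving out single arrays gave apex ranges of -0.13 to 0.22 (Nppc), -0.1 to 0.16 (Npr1), -0.39 to 0.11 (Npr3) and -0.09 to 0.07 (Furin), and -0.18 to 0.04 for Furin in the outflow tract. For the difference they were -0.37 to 0.04 (Nppb) and -0.16 to 0.07 (Furin), between vehicle regions -0.15 to 0.38 (Nppc), -0.02 to 0.05 (Npr2) and -0.65 to 0.02 (Npr3), and between PE regions -0.05 to 0.73 (Nppa) and -0.06 to 0.84 (Npr3).

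In the outflow tract 6083 probe sets were higher and 4637 lower. The split was 5177 and 5367 with quantile normalization and 4415 and 5966 with median centring. Other probe sets of the members could not be tried, since each has 1. The dim filter removed Nppc, whose signal is the lowest of the members.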
